A study of Mus musculus with 7 samples.

Results

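The genes described here are 10 regulators of the G1 phase of the cell cycle: the D-type cyclin genes Ccnd1, Ccnd2 and Ccnd3, the E-type cyclin genes Ccne1 and Ccne2, the kinase gene Cdk6, and the genes of the cyclin-dependent kinase (CDK) inhibitors Cdkn1a, Cdkn1b, Cdkn2a and Cdkn2c. They were chosen by symbol from the 52636 Ensembl genes of the deposited count table, and all 10 were found and passed the filter on low counts. The count table covers polyadenylated RNA of sorted liver endothelium from mice, 3 libraries labelled control and 4 labelled c-Maf KO, a knockout of the transcription factor gene Maf. No treatment, strain, age, Cre driver or deleted exon is given in the labels, so the cells in which Maf was removed are not known here, and the series' design text calls the controls WT. Whether each library is an animal of its own is not given either. The p-values below therefore rest on library-to-library spread, some of which may be technical.

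In G1, D-type cyclins bind CDK4 or CDK6 and E-type cyclins bind CDK2, and these kinases phosphorylate the retinoblastoma family of pocket proteins, which releases E2F transcription factors and opens the way to DNA replication. E2F factors in turn activate the E-type cyclin genes. The INK4 inhibitors, such as the products of Cdkn2a and Cdkn2c, bind CDK4 and CDK6, while the CIP/KIP inhibitors encoded by Cdkn1a and Cdkn1b act on CDK2 complexes and also help D-type cyclins to assemble with their kinases. Endothelial cells of the adult liver rarely divide and enter the cycle during regeneration.

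Levels are given as CPM, read counts relative to library size, scaled between libraries by the trimmed mean of M-values (TMM). Each gene was tested by edgeR's quasi-likelihood test, with Benjamini-Hochberg adjustment over the 15512 genes that passed the filter, and rose and fell are used of KO relative to control where that adjusted p was under 0.05. Libraries held 24772716 to 32960007 counts. Maf itself stood at 1663, 2086 and 2145 CPM in controls 1 to 3 and at 28.8, 158.8, 124.4 and 37.7 CPM in KO 1 to 4, or 1.47 to 8.08% of the control mean. Change was wide: 45.2% of all tested genes passed the test, 23% higher and 22.2% lower in the KO. For 50.3% of all tested genes every KO library lay above every control (25.6%) or every KO library lay below every control (24.6%). Scaling moved this balance: rises were 50.8% of calls under TMM, 63.4% when scaled by the upper quartile and 76.3% when scaled by library totals alone. The median log2 fold change of all genes was 0.04, 0.17 and 0.31 in these fits. In bulk RNA, a different number of cells that express a gene and a different amount of RNA per cell cannot be told apart.

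The sort was checked against 7 endothelial marker genes, all of them detected in every library. Their summed levels were 15985 to 18209 CPM in controls and 5810 to 8869 CPM in the KO, where 6 of the 7 fell. Stab2, from 5954 to 647 CPM, and Kdr, from 5301 to 2924 CPM, weighed most in the control sum. Pecam1 fell 1.55-fold, from 1373 to 885 CPM. Cdh5 did not pass, at 1951 and 1502 CPM (edgeR adjusted p = 0.0935). Tek fell from 1122 to 546 CPM, Erg from 397 to 240 CPM and Lyve1 from 872 to 215 CPM. A lower share of endothelial cells and lower levels of these genes per cell cannot be told apart in these values. The sum is therefore not a measure of endothelial content alone. Markers of other cells were present too, each list summing to less than the endothelial one in every library, and in part moved with genotype. The hepatocyte gene Alb reached 878 CPM in KO 1, where Pecam1 was at 661 CPM. The sum of 8 hepatocyte markers was 244 to 257 CPM in controls and 1145, 296, 358 and 556 CPM in KO 1 to 4, and 4 of the 8 rose. The sum of 5 platelet and megakaryocyte markers was 16.5 to 20.4 CPM and 29.0 to 42.5 CPM, with 4 of the 5 higher by the test, and that of 6 macrophage markers 46.3 to 201.9 CPM and 42.9 to 125 CPM. Markers of erythroid cells summed to 2.50 to 10.1 CPM in controls and 5.76 to 39.9 CPM in the KO. Of 6 stellate and fibroblast markers 3 fell, with Lrat, a gene of retinoid storage, going from 3.56 ± 0.645 to 1.09 ± 0.345 CPM (edgeR adjusted p = 0.00135). Control 3 was highest in their sum, at 118 CPM against 10.3 and 28.5 CPM in the other controls and 6.04 to 35.5 CPM in the KO. The 6 markers of T and NK cells summed to 0.0884 to 0.837 CPM over the libraries, 5 of B and plasma cells to 1.40 to 6.71 CPM, 4 of cholangiocytes to 0.437 to 9.42 CPM, highest in control 3, and 4 of neutrophils to 0.884 to 4.65 CPM. The part of these cells in the changes below was not tested.

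Of the 10 G1 regulators 6 rose and 2 fell, while Ccnd3 and Cdkn1b did not pass, and the same 8 genes had no overlap between control and KO libraries. Of all tested genes 23% were called higher and 22.2% lower, and 25.6% and 24.6% were higher and lower without overlap. The genes that rose were both E-type cyclin genes, Ccnd1 and 3 of the 4 inhibitor genes, and those that fell were Ccnd2 and Cdk6. The median log2 fold change of the 10 was 0.85, where that of all tested genes was 0.04. Thus both positive and negative regulators of G1 were among the genes with higher levels.

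Promoter sequences are shown for Ccne1, which had the largest change, for Cdkn2a, whose deposited counts sum transcripts of separate starts, and for Cdk6, which fell. They come from RefSeq on build GRCm38.p6, which held 11 start windows for 7 of the 10 genes and none for Ccnd1, Ccnd2 or Ccne2. The 250 bases before each start were searched on both strands for TTTNNCGC, a form of the E2F site, for CACGTG, the E-box that MYC proteins bind, for TGCTGA, which begins the Maf recognition element, and for TGACTCA, the AP-1 site. The last of these can overlap TGCTGA at a shared TGA. Each sequence reads 5′ to 3′ along the gene's strand, stops where a GENCODE exon begins, and has matches in capitals.
Ccne1, chr7:38107535-38107740, minus strand: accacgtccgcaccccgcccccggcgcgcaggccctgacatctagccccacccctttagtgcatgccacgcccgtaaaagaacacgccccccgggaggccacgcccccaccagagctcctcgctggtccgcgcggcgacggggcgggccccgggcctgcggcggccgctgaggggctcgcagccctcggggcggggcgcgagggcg
Cdkn2a, first start, chr4:89294654-89294869, minus strand: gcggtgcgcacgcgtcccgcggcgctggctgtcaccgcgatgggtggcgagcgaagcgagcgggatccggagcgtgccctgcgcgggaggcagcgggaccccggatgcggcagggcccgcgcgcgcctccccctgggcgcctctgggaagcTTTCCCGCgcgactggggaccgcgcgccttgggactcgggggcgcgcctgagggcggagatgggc
Cdkn2a, second start, chr4:89282193-89282442, minus strand: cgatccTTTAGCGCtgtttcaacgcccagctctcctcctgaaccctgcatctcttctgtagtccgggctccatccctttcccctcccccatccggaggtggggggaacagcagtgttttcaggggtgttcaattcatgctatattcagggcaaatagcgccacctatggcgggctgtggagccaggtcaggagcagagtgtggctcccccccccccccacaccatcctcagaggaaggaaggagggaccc
Cdk6, chr5:3343643-3343731, plus strand: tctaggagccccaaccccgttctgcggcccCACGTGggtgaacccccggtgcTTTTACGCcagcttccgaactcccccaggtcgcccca
Both Cdkn2a windows held TTTNNCGC, beginning 99 bases before the first start and 244 bases before the second. The Cdk6 window held it 198 bases before the start, with CACGTG 220 bases before. In the window of Ccne1 none of these 4 strings was found. Among all 32851 RefSeq windows of this length, TTTNNCGC was in 4.28%, CACGTG in 6.02%, TGCTGA in 16.1% and TGACTCA in 4.46%. TGCTGA was also in a window of Ccnd3, 43 bases before the start, and in one of Cdkn1a, 106 bases before. A match of letters is not a binding site, and no binding was measured.

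The D-type cyclin genes, whose products link growth factor signals to the cell cycle, did not move together. Ccnd1 (chromosome 7, 144929931 to 144939925, GRCm38, ENSMUSG00000070348) stood at 297, 340 and 263 CPM in controls 1 to 3 and at 380, 424, 533 and 349 CPM in KO 1 to 4. Every KO library lay above every control, with the closest pair being control 2 and KO 4. Ccnd1 rose 1.40-fold (log2 fold change 0.49, SE 0.16, edgeR adjusted p = 0.0343). KO 3, the highest library, and control 3, the lowest, were those sequenced in lane 4. In lane 5 alone the log2 fold change was 0.22 (edgeR adjusted p = 0.175), and Ccnd1 also did not pass without control 1 (0.0908), control 3 (0.128) or KO 2 (0.0679), or with control 3 and KO 1 both left out (0.109). A gene on the other strand shares 1100 exon bases with Ccnd1 and had 509 to 751 counts per library, against at least 6001 for Ccnd1.

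Ccnd2 (chromosome 6, 127125162 to 127152193, ENSMUSG00000000184), the D-type cyclin gene of many blood and growing cells, went the other way. Its level was 207, 265 and 241 CPM in controls 1 to 3 and 101, 132, 149 and 101 CPM in KO 1 to 4. The highest KO library, KO 3, was below the lowest control. Ccnd2 fell 1.97-fold (log2 fold change -0.97, SE 0.16, edgeR adjusted p = 0.00118) and passed in all 18 alternative fits, with adjusted p up to 0.00758. KO 2 and KO 3, the KO libraries with most Ccnd2, were also those with most remaining Maf. They were highest in the summed endothelial markers too, at 7136 and 8869 CPM against 5810 and 6024 CPM in KO 1 and KO 4. KO 3 led in Ccnd2 and in these markers, and KO 2 in Maf. A link of Ccnd2 to either was not tested.

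Ccnd3 (chromosome 17, 47505051 to 47599691, ENSMUSG00000034165), the third of the family, had 170, 183 and 152 CPM in controls and 130, 159, 157 and 132 CPM in KO 1 to 4. KO 2 and KO 3 overlapped the controls, and KO 1 and KO 4 were below them. The log2 fold change of -0.22 had a 95% interval from -0.47 to 0.03 (edgeR adjusted p = 0.130), which holds falls of modest size. With library totals in place of TMM the sign turned, to 0.04 (adjusted p = 0.719), and in lane 5 alone Ccnd3 was lower by more, at -0.38 (adjusted p = 0.0290). Bysl, on the other strand, shares 361 exon bases with Ccnd3. It had 572 to 656 counts per control library and 851 to 1109 per KO library. How many Ccnd3 counts came from the shared bases is not known.

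**Figure D1:**
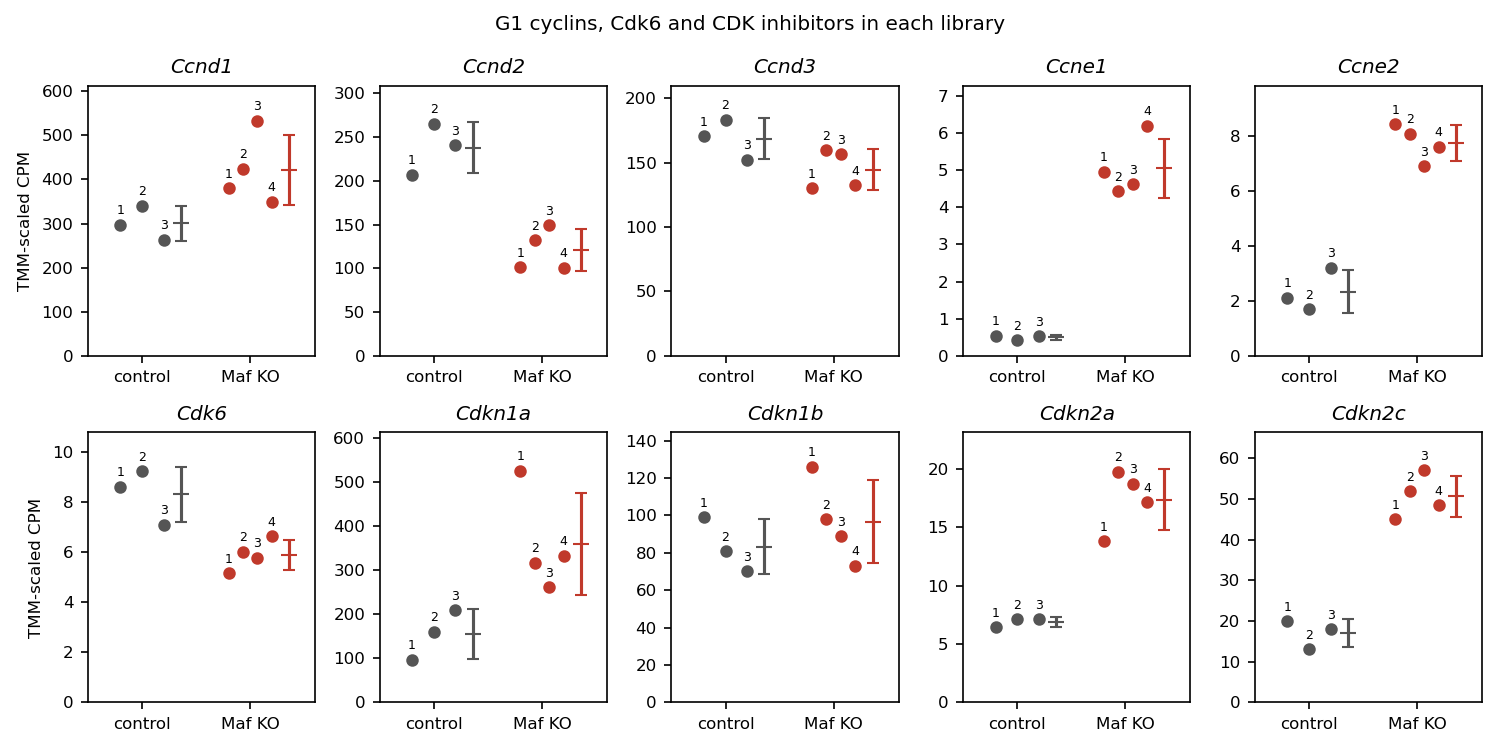
TMM-scaled CPM of each of the 10 genes on linear axes from 0, with a numbered point for each control (grey) and Maf KO (red) library and bars for the group mean ± SD. Ccne1, Ccne2, Cdkn2a and Cdkn2c were separated by wide gaps, while Ccnd3 and Cdkn1b overlapped between the groups.

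Because a ratio within a library does not depend on scaling between libraries, the share of each cyclin was also computed from counts per kilobase of exons. Ccnd1 made up 60.4, 59.6 and 56.5% of D-type cyclin counts per kilobase in controls 1 to 3, and 75.9, 73.7, 77.0 and 74.2% in KO 1 to 4. The mean went from 58.8% ± 2.02 (SD, n = 3) to 75.2% ± 1.57 (n = 4), with no overlap (exact two-sided permutation p = 0.0571, the smallest that 3 against 4 libraries allow). The share of Ccnd2 went from 23.4% ± 2.42 to 10.8% ± 0.558 and that of Ccnd3 from 17.8% ± 0.705 to 14.01% ± 1.33, each without overlap and each at the same exact permutation p. Ccnd3 has 21 annotated transcripts and its exons together are much longer than any single one. With the longest coding transcript as the length, the Ccnd1 share was 40.5% ± 1.36 in controls and 56.1% ± 2.45 in the KO, and that of Ccnd3 40.4% ± 1.23 and 34.4% ± 2.51. The direction thus held with either length. The order in the controls did not: by the longest coding transcript Ccnd3 exceeded Ccnd2 in every control, and also Ccnd1 in control 1 (41.8 against 41.2%) and control 3 (39.95 against 38.97%).

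**Figure D2:**
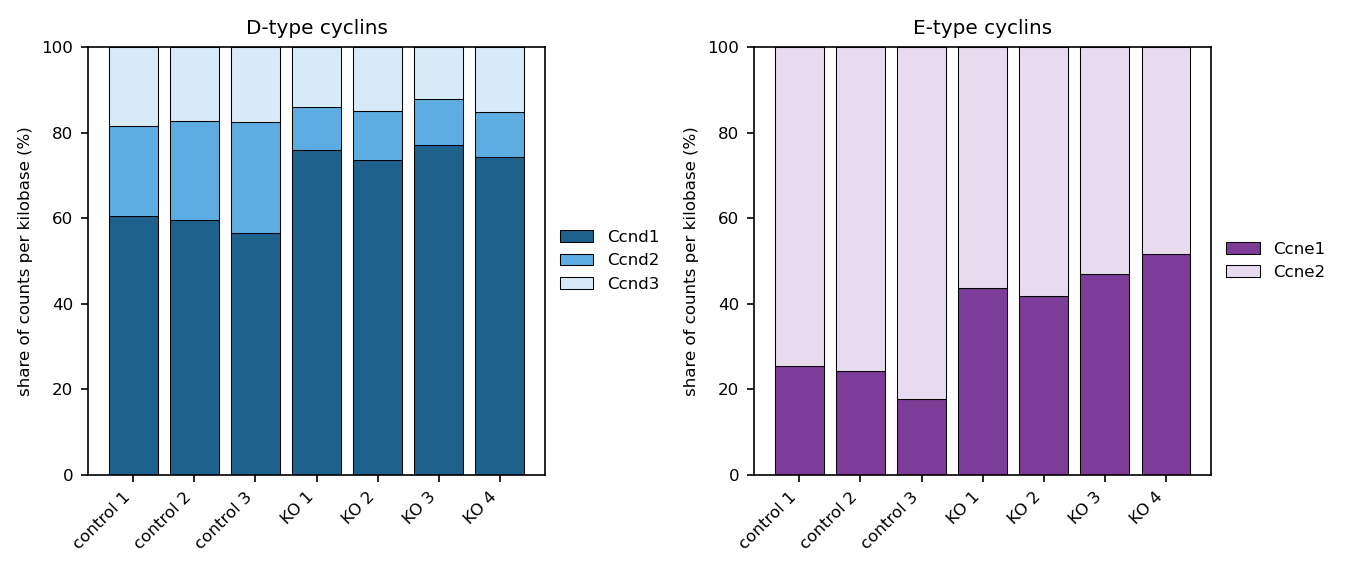
Share of counts per kilobase of exons, in percent, held by each D-type cyclin gene (left, blue) and each E-type cyclin gene (right, purple), 1 bar per library. Ccnd1 held 56.5 to 60.4% of the D-type signal in controls and 73.7 to 77.0% in the KO, and Ccne1 17.8 to 25.4% and 41.9 to 51.7% of the E-type signal.

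The E-type cyclin genes, which drive the passage from G1 to DNA replication, had the largest changes of the 10. Ccne1 (chromosome 7, 38097984 to 38107534, ENSMUSG00000002068) was low in controls, with 15, 10 and 12 counts or 0.546, 0.416 and 0.526 CPM. KO 1 to 4 held 4.95, 4.42, 4.62 and 6.19 CPM, so that the lowest KO library was far above the highest control. Ccne1 rose 10.1-fold (log2 fold change 3.33, SE 0.23, edgeR adjusted p = 1.80e-05), and it passed in all 18 alternative fits at log2 fold changes of 3.22 to 3.60.

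Ccne2 (chromosome 4, 11191351 to 11204779, ENSMUSG00000028212) was at 2.11, 1.71 and 3.20 CPM in controls and 8.41, 8.07, 6.89 and 7.61 CPM in KO 1 to 4. Control 3 was the highest control and KO 3 the lowest KO library, and the groups stayed apart. Ccne2 rose 3.31-fold (log2 fold change 1.73, SE 0.22, edgeR adjusted p = 0.000362). It shares 609 exon bases with Ints8 on the other strand, which had 886 to 1231 counts per library. Since the labels name an unstranded and a stranded kit without saying which was used, reads from these bases cannot be assigned with certainty.

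Within the E-type pair the balance moved towards Ccne1. Its share of E-type counts per kilobase was 25.4, 24.3 and 17.8% in controls and 43.6, 41.9, 46.8 and 51.7% in KO 1 to 4, or 22.5% ± 4.11 against 46.0% ± 4.31, again without overlap (exact two-sided permutation p = 0.0571, the smallest possible). By these counts Ccne2 was the more abundant of the pair in every control, and in the KO Ccne1 came close to it or, in KO 4, passed it. Ccne2 had 58, 41 and 73 counts in controls 1 to 3. How many of them came from the bases shared with Ints8 is not known, so the control shares and the size of the shift are uncertain. By the longest coding transcript the Ccne1 share was 46.9, 45.2, 50.2 and 55.02% in KO 1 to 4, so that KO 3 also held more Ccne1 than Ccne2, and 19.8 to 28.0% in controls.

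Cdk6 (chromosome 5, 3341485 to 3531008, ENSMUSG00000040274), the catalytic partner of D-type cyclins in many blood and stem cells, was a low transcript per length. Controls 1 to 3 held 8.62, 9.24 and 7.10 CPM and KO 1 to 4 held 5.16, 6.02, 5.79 and 6.63 CPM. The groups were apart only by the gap between control 3 and KO 4. Cdk6 fell 1.41-fold (log2 fold change -0.50, SE 0.15, edgeR adjusted p = 0.0252). The call was lost with upper-quartile factors (-0.37, adjusted p = 0.0770), with library totals (-0.23, adjusted p = 0.251), where the groups overlapped, with no filter (0.0524), and without control 1 (0.0707) or control 2 (0.107). Its sister kinase gene Cdk4 did not pass, with 205 ± 5.10 CPM in controls and 201 ± 16.9 CPM in the KO (log2 fold change -0.03, edgeR adjusted p = 0.846). With library totals Cdk4 turned sign and was called higher (0.24, adjusted p = 0.0438).

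Of the CIP/KIP inhibitors, Cdkn1a (chromosome 17, 29090976 to 29100727, ENSMUSG00000023067), a gene switched on by p53 among other signals, rose with much spread. Controls 1 to 3 held 96.8, 160 and 209 CPM and KO 1 to 4 held 525, 316, 261 and 333 CPM. KO 1 stood well above the other KO libraries, and the lowest of these, KO 3, was still above control 3. The mean went from 155 ± 55.997 to 359 ± 115 CPM, 2.31-fold (log2 fold change 1.21, SE 0.30, edgeR adjusted p = 0.00960), and it passed in all 18 alternative fits with adjusted p up to 0.0408. KO 1 was also highest in the summed hepatocyte markers given above and in 10 immediate-early and heat shock genes, which cell isolation can induce. These summed to 8495, 7714 and 6443 CPM in controls and 19042, 15544, 9355 and 11744 CPM in KO 1 to 4. Of these 10 genes 4 rose and 0 fell, where 23% of all tested genes rose and 22.2% fell. Among the 4 were Atf3, from 116 ± 30.1 to 769 ± 411 CPM, and Jun, from 1968 ± 277 to 3909 ± 1002 CPM. Rises numbered 7 or 8 with upper-quartile factors, library totals, no filter, DESeq2, the lane as covariate or without KO 3. Among the controls the order was opposite, since control 3 had most Cdkn1a and least of these genes. With control 3 and KO 1 both left out, 5 of the 10 G1 regulators rose and 2 fell. In that fit 32.9% of 15667 tested genes were called, 2533 higher and 2615 lower. The part of cell isolation in the Cdkn1a values was not tested.

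Targets of p53 other than Cdkn1a were read from the same fit. Of 10 such genes 7 rose and 0 fell, with a median log2 fold change of 0.75. Of all tested genes 23% rose and 22.2% fell, and their median was 0.04. Phlda3, an inhibitor of AKT signalling, rose from 12.8 ± 1.48 to 64.0 ± 8.30 CPM, the receptor gene Eda2r from 10.4 ± 0.867 to 37.1 ± 7.72 CPM, the nuclease gene Aen from 23.2 ± 0.816 to 50.5 ± 7.22 CPM, and the stress sensor gene Sesn2 from 42.8 ± 3.29 to 69.0 ± 5.59 CPM. Mdm2, the ligase gene that feeds back on p53, did not pass, at 64.8 ± 3.64 and 76.5 ± 12.8 CPM (edgeR adjusted p = 0.145), but was called higher when scaled by the upper quartile or by library totals alone (at the latter, log2 fold change 0.51, adjusted p = 0.0131). Ccng1 and Trp53inp1 did not pass either (log2 fold change 0.07 and -0.03, edgeR adjusted p = 0.632 and 0.870). With library totals Ccng1 was called higher (0.33, adjusted p = 0.0260) and Trp53inp1 turned sign (0.23, adjusted p = 0.217). The p53 gene itself, Trp53, was at 84.7 ± 8.97 and 159.6 ± 18.6 CPM (edgeR adjusted p = 0.000391).

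Cdkn1b (chromosome 6, 134920401 to 134925513, ENSMUSG00000003031) encodes p27, an inhibitor that is abundant in resting cells and controlled largely at the protein level. It had 99.1, 80.8 and 70.2 CPM in controls and 126, 98.01, 88.8 and 73.2 CPM in KO 1 to 4, so that only KO 1 was outside the control range. It did not pass (log2 fold change 0.21, 95% interval -0.20 to 0.62, edgeR adjusted p = 0.369). With library totals it was higher at 0.47 (adjusted p = 0.0481), and with control 3 and KO 1 left out the sign turned, to -0.05 (adjusted p = 0.806).

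Both INK4 genes of the set rose in all 4 KO libraries. Cdkn2a (chromosome 4, 89274471 to 89294653, ENSMUSG00000044303) encodes the INK4 inhibitor p16 and, from the first of the starts shown above and another reading frame, ARF, which stabilises p53. The deposited counts do not separate these transcripts. Cdkn2a was at 6.44, 7.11 and 7.10 CPM in controls and 13.8, 19.7, 18.7 and 17.1 CPM in KO 1 to 4. The controls were within a narrow range and every KO library was above it, KO 1 the least. The rise was 2.52-fold (log2 fold change 1.33, SE 0.14, edgeR adjusted p = 0.000138). Cdkn2c (chromosome 4, 109660876 to 109667189, ENSMUSG00000028551), which encodes p18, was at 19.9, 13.1 and 18.0 CPM in controls and 44.99, 52.0, 57.05 and 48.5 CPM in KO 1 to 4. KO 1 was again the lowest KO library and lay above all controls. Cdkn2c rose 2.97-fold (log2 fold change 1.57, SE 0.15, edgeR adjusted p = 7.36e-05), and both genes passed in all 18 alternative fits. In KO 1, the library highest in Cdkn1a, these INK4 transcripts were therefore lowest among the KO libraries.

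**Figure D3:**
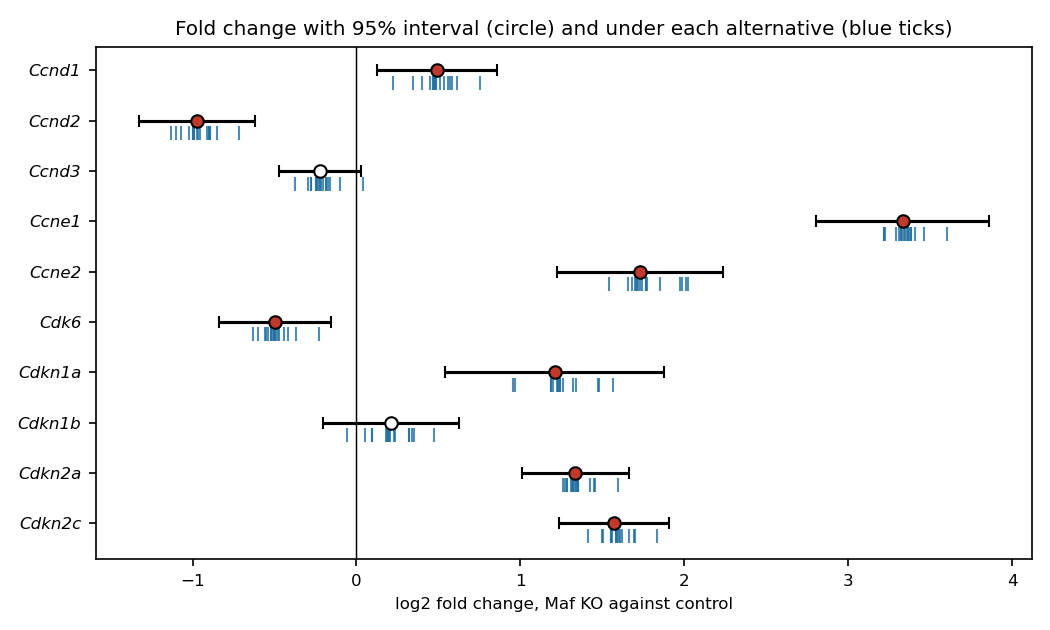
Log2 fold change of KO against control for each gene, with its 95% interval (circle and bar, red where the adjusted p was under 0.05 and white where not) and its value under each of 18 alternative fits (blue ticks). Ccne1 stood at 3.22 to 3.60 in all of them, Ccnd2 at -1.13 to -0.72, and the ticks of Ccnd3 and Cdkn1b fell on both sides of 0.

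Levels per length were ordered as follows, in CPM per kilobase of the union of exons, and the places hold for that length only. In controls Ccnd1 was first at 63.7 ± 8.24, then Cdkn1a at 43.7 ± 15.8, Ccnd2 at 25.3 ± 3.10, Ccnd3 at 19.2 ± 1.78 and Cdkn1b at 18.3 ± 3.20. Cdkn2c at 6.34 ± 1.30 and Cdkn2a at 5.87 ± 0.329 followed, and Ccne2 at 0.669 ± 0.221, Cdk6 at 0.595 ± 0.0786 and Ccne1 at 0.186 ± 0.0262 came last. Neighbours whose control libraries overlapped were Ccnd1 and Cdkn1a, Cdkn1a and Ccnd2, Ccnd3 and Cdkn1b, Cdkn2c and Cdkn2a, and Ccne2 and Cdk6. In the KO Cdkn1a at 101 ± 32.4 and Ccnd1 at 89.5 ± 17.02 overlapped at the top. Cdkn1b (21.2 ± 4.88), Cdkn2c (18.8 ± 1.92), Ccnd3 (16.5 ± 1.78), Cdkn2a (14.8 ± 2.23) and Ccnd2 (12.9 ± 2.54) formed a run in which each overlapped the next. Ccne2 (2.22 ± 0.188) and Ccne1 (1.90 ± 0.298) overlapped, and Cdk6 was last at 0.422 ± 0.0435. By this length Ccnd2 went from the third place to the seventh, and Cdk6 and Ccne1 exchanged places. By the longest coding transcript Ccnd3 stood above Ccnd2 in every control and above Ccnd1 in controls 1 and 3, as the shares given above show.

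**Figure D4:**
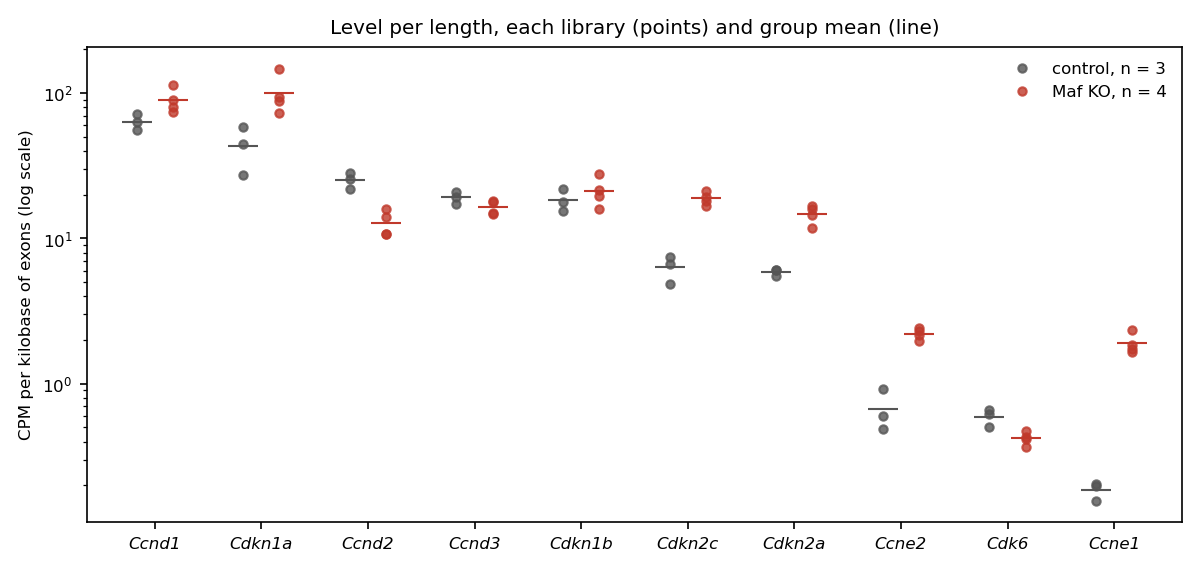
CPM per kilobase of exons on a log axis for each gene in each control (grey, n = 3) and Maf KO (red, n = 4) library, with a line at the group mean, in the order of the control means. Cdkn2c and Cdkn2a were at 6.34 and 5.87 in controls and at 18.8 and 14.8 in the KO, in the range of Cdkn1b and Ccnd3.

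Other genes that act with these regulators were taken from 6 lists of 42 genes, of which 41 passed the filter, 21 rose, 6 fell and 14 did not pass. Over all tested genes 23% were called higher and 22.2% lower. Their median log2 fold change was 0.31, against 0.04 for all tested genes. Falls numbered 3 without control 1, control 2, KO 1 or KO 4, and 10 without KO 3. Of 6 CDKs and partners 2 rose and 0 fell: Ccna2, the S phase cyclin gene, from 5.84 ± 3.05 to 46.1 ± 3.58 CPM and Cdk2, the kinase gene of the E-type cyclins, from 45.6 ± 1.15 to 98.5 ± 19.2 CPM (edgeR adjusted p = 7.32e-05 and 0.000368). The catalytic and cyclin genes of the CDK-activating kinase, Cdk7 and Ccnh, did not pass, at 25.9 and 29.0 CPM and at 23.2 and 19.4 CPM in control and KO. Neither gene had overlap between the groups, Cdk7 being higher and Ccnh lower in the KO. With library totals Cdk7 was called higher (0.43, adjusted p = 0.00212) and Ccnh turned sign (0.01, adjusted p = 0.95). Ccnh was called lower with the filter of at least 1 CPM in 3 libraries and without KO 3.

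The pocket protein genes split by member. Rbl1, which encodes p107 and is itself an E2F target, rose from 19.96 ± 2.48 to 29.3 ± 2.11 CPM (edgeR adjusted p = 0.00346). Rbl2, whose product p130 keeps E2F targets silent in resting cells, fell from 37.4 ± 0.545 to 22.5 ± 3.04 CPM (edgeR adjusted p = 0.000762). Rb1 did not pass, at 74.3 ± 4.51 and 68.0 ± 4.97 CPM, and its sign turned with library totals (0.14, adjusted p = 0.139).

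Of 10 E2F and DP factor genes 6 rose and 2 fell. The activator gene E2f1 stood at 4.87, 5.24 and 5.35 CPM in controls and 26.3, 28.6, 24.7 and 31.3 CPM in KO 1 to 4, 5.38-fold higher (log2 fold change 2.43, SE 0.12, edgeR adjusted p = 4.94e-06). E2f2, another activator, rose from 1.93 ± 0.915 to 18.7 ± 2.22 CPM, the repressor gene E2f7 from 11.2 ± 0.141 to 45.8 ± 3.88 CPM and the partner gene Tfdp1 from 10.9 ± 1.40 to 31.6 ± 2.84 CPM. The 2 that fell were E2f4 and E2f5, factors that work with Rbl2 in resting cells, by 0.25 and 0.26 on the log2 scale (edgeR adjusted p = 0.0365 and 0.0450). They did not pass with upper-quartile factors, no filter or library totals, and with the latter E2f4 turned to 0.02 and E2f5 was at -0.0011. E2f4 also did not pass without any single control, KO 1 or KO 4, nor E2f5 in lane 5 alone, with the lane as covariate or without any single library other than KO 3.

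The remaining inhibitor genes also went both ways. Cdkn1c, which encodes p57, the CIP/KIP inhibitor of an imprinted locus, stood at 22.0, 21.3 and 24.0 CPM in controls and 3.82, 4.26, 5.52 and 5.31 CPM in KO 1 to 4. It fell 4.74-fold (log2 fold change -2.24, SE 0.15, edgeR adjusted p = 1.29e-05), where Cdkn1a rose and Cdkn1b did not pass. The INK4 genes Cdkn2d and Cdkn2b rose from 18.0 ± 1.70 to 25.7 ± 3.57 CPM and from 2.86 ± 0.407 to 4.31 ± 0.587 CPM (edgeR adjusted p = 0.0108 and 0.0318). All 4 INK4 genes thus had higher means in the KO. However, Cdkn2b did not pass with no filter, in lane 5 alone or with a block for replicate number. Nor did it pass without control 2, control 3, KO 2 or KO 4. With control 3 and KO 1 both left out, neither Cdkn2b nor Cdkn2d passed. Over the alternative fits the highest adjusted p was 0.125 for Cdkn2b and 0.0763 for Cdkn2d.

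Among 9 genes of turnover and activation 5 rose and 1 fell. Cks1b and Skp2, whose products direct p27 to degradation, rose from 1.94 ± 0.226 to 14.1 ± 2.02 CPM and from 5.38 ± 0.296 to 14.8 ± 1.35 CPM (edgeR adjusted p = 9.75e-06 and 4.12e-05). Wee1, an inhibitory kinase gene of CDK1 and CDK2, rose from 2.48 ± 0.633 to 13.2 ± 1.47 CPM, and the activating phosphatase gene Cdc25a from 17.7 ± 2.45 to 34.8 ± 6.23 CPM. Cul1, the scaffold gene of the SCF ubiquitin ligase, was the 1 that fell, by 0.25 on the log2 scale (edgeR adjusted p = 0.0313), and its sign turned with library totals, to 0.01 (adjusted p = 0.898). It did not pass either without control 1, control 2, KO 1, KO 2 or KO 4. Fbxw7, of the ligase that degrades cyclin E, and Ambra1, of the one that degrades D-type cyclins, did not pass, at 33.3 ± 0.432 and 34.6 ± 2.53 CPM and at 59.3 ± 1.39 and 60.3 ± 1.99 CPM. With library totals both were called higher (0.32 and 0.29, adjusted p = 0.0130 and 0.0107).

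Of 11 upstream regulators 10 were tested, 5 rose and 1 fell. Myc, a transcription factor gene that promotes entry into the cycle, rose from 24.0 ± 3.59 to 249.7 ± 71.8 CPM, and Mycn from 0.958 ± 0.567 to 27.2 ± 11.8 CPM (edgeR adjusted p = 2.62e-05 and 7.30e-05). Ezh2, a Polycomb methyltransferase gene whose product can silence Cdkn2a, rose from 10.8 ± 0.470 to 31.5 ± 3.78 CPM, while Bmi1, a Polycomb gene best known for repression of Cdkn2a, fell from 75.6 ± 4.63 to 46.9 ± 3.51 CPM (edgeR adjusted p = 0.000296). In lane 5 alone and without KO 3, 3 of these regulators fell, Bmi1, Foxo1 and Foxo4. With all libraries Foxo1 and Foxo3, whose products can activate Cdkn1b, did not pass, at 128 ± 12.3 and 106 ± 18.7 CPM and at 63.6 ± 7.14 and 57.7 ± 5.24 CPM.

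**Figure D5:**
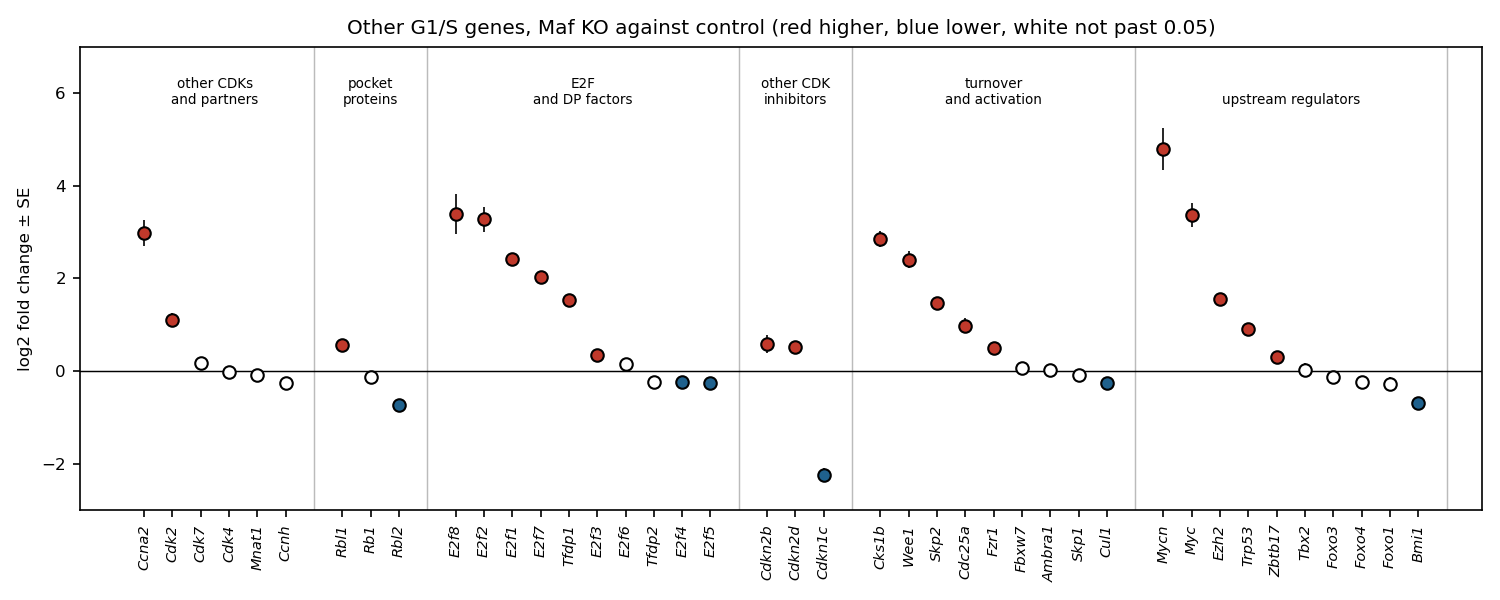
Log2 fold change ± SE of KO against control for the 41 tested genes of 6 lists (red rose, blue fell, white did not pass). Cdkn1c was lowest at -2.24, Mycn highest at 4.79, and the falls of E2f4, E2f5 and Cul1 were all near -0.25.

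Genes of DNA replication and mitosis, as a readout of the cycle past G1, rose in 19 of 20 cases and fell in 0, with a median log2 fold change of 2.93. Of all tested genes 23% rose and 22.2% fell, and the list was chosen with earlier results of these data known. Plk1, a mitotic kinase gene, rose from 3.24 ± 0.660 to 24.997 ± 1.82 CPM, Aurkb from 2.34 ± 0.911 to 34.3 ± 3.65 CPM, the checkpoint kinase gene Bub1 from 1.16 ± 0.413 to 17.2 ± 1.64 CPM and the helicase gene Mcm5 from 21.1 ± 1.601 to 71.8 ± 6.01 CPM. The fold changes of Ccne1 and Ccne2 on the log2 scale, 3.33 and 1.73, were within the range of this list. That of Ccnd1, 0.49, was above only that of the helicase gene Mcm3 (0.06, the 1 gene that did not pass, called higher at 0.32 with library totals), and that of Ccnd2, -0.97, was below all. The level of these genes by library, as the list's median in percent of the control mean, was 781, 739, 638 and 850% in KO 1 to 4, where KO 3, lowest here, was highest in Ccnd1 and Cdkn2c.

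Genes with patterns most like the strongest rise and the strongest fall among the 10 were found by Pearson correlation of log2 CPM over the 7 libraries, which mostly reflects the difference between genotypes. For Ccne1 they were Phlda3 (r = 0.999), the mitotic kinesin gene Kif15 (0.998) and the cell cycle transcription factor gene Mybl2 (0.998), out of 9329 genes compared, of which 656 had r above 0.95. For Ccnd2 they were Smad4 (r = 0.999), the transducer of TGF-beta and BMP signals, the Argonaute gene Ago1 (0.999) and the G protein gene Gnaq (0.998), and 1500 of 9328 genes had r above 0.95. Neither pattern was therefore particular to the genes named.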

How the data were processed

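The authors deposited raw read counts per Ensembl gene, not normalized. FastQC 0.11.5, STAR 2.7.6a and build GRCm38 are named in the submitters' processing notes. The counting tool, its annotation and its strand setting: not given in the sources used here. Per the labels' protocols, endothelial cells were sorted by flow cytometry and libraries made with either an unstranded or a stranded TruSeq kit. Groups come from the labels' titles, and lanes from the labels' descriptions. Libraries of the same group all differed by more than counting error (chi-square over its degrees of freedom, 14.5 to 106.5).

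Of 52636 IDs, 52403 matched a symbol in GENCODE release M21, and Skp1 was matched through its older symbol. Lengths and coordinates come from that annotation. Counts were analysed in R 4.3.3 with edgeR 4.0.16 (filterByExpr, minimum 10 counts and 15 in total, TMM factors of 0.877 to 1.135, quasi-likelihood test without covariate). SEs are the log2 fold change over the square root of F, and 95% intervals use the test's degrees of freedom. Values after ± are SDs over 3 control or 4 KO libraries. In the libraries, 3 counts equal 0.0872 to 0.131 CPM. The tests were checked on simulated counts.

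Alternatives were 3 other scalings, 2 other filters, DESeq2 1.42.0, limma-voom (limma 3.58.1), a lane covariate, the libraries of lane 5, a block for replicate number and omission of each library; the omission of control 3 and KO 1 together and the second transcript length were chosen after seeing the data. The members and lists were chosen with earlier results of these data known. Named genes are the 10 members, Maf, up to 4 called genes per list with the smallest p, uncalled list members by value, and the 3 genes most like the strongest rise and fall, among genes averaging a log2 CPM of 3 or more. Trp53, E2f4, E2f5, Cul1, Lrat and Alb were named outside that rule after their values were seen, as were Ints8 and Bysl for their overlaps with Ccne2 and Ccnd3.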

Additional observations from a re-analysis of the deposited data

Results flagged for a closer look

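Among the 4 KO libraries, 55 sets of values of the G1 regulators, cyclin shares and related genes were examined for a library far from the others, and 3 were found, where chance flags about 1 in 20 groups. E2f2 was at 15.3 CPM in KO 3 and at 19.6 to 19.8 CPM in the other KO libraries. Zbtb17, which encodes a partner of MYC, was at 41.1 CPM in KO 3 and at 47.9 to 49.3 CPM in the others. Bmi1 was at 41.7 CPM in KO 4 and at 48.2 to 49.4 CPM in the others. None of the 10 G1 regulators had such a library.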

How the results depend on the processing

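Over 18 alternative fits, 6 to 8 of the 10 G1 regulators were called, 5 to 7 higher in the KO. The share of all tested genes called ran from 23.5% with no filter to 53.8% with library totals. Ccnd2, Ccne1, Ccne2, Cdkn1a, Cdkn2a and Cdkn2c kept direction and call in all 18. The number called lower, 2, was 1 with upper-quartile factors, library totals, no filter and the replicate block, 3 in lane 5 alone, and 1 to 2 without single libraries. Pathway genes called lower, 6, numbered 3 in those same 4 fits and without control 3 and KO 1 together, and 3 to 10 without single libraries. With library totals 6370 of all genes were called higher and 1978 lower (3561 and 3448 with TMM), so 76.3% of calls were rises against 50.8%; the median log2 fold change of all genes was 0.31 on that scale. Signs turned for Ccnd3 with library totals (0.0416) and for Cdkn1b without control 3 and KO 1 (-0.0549). The difference in Ccnd1 share stood at 14.6 to 18.8 percentage points and that in Ccne1 share at 20.9 to 24.98 under every alternative run for them. Numbers 1 to 3 are shared by the groups. Deviations from the group mean correlated at -0.00126, 0.147 and 0.0815 between same-numbered libraries, and at -0.181 to 0.0843 between differently numbered ones. These values do not settle whether the numbers mark pairs. With the replicate block, without KO 4, Ccnd1 (adjusted p = 0.0529) and Cdk6 (0.0557) did not pass and Cdkn1b did (0.0435). The causes were not tested. Depth limits Ccne1 most, with 10 to 15 counts per control.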
